A study of Mus musculus with 20 samples.

Results

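Matrix proteases and their inhibitors were followed in 20 RNA-seq libraries of mouse bone marrow-derived macrophages (BMDMs). The set holds 10 of the 21963 genes of the count table, namely the inhibitors Timp1, Timp2 and Timp3, the matrix metalloproteases Mmp8, Mmp9, Mmp12, Mmp13 and Mmp14, the aggrecanase Adamts4 and the surface protease Adam8. The genes were chosen by earlier results on these same libraries over all 5 groups, so their differences are given here as a description with no p-value, and counts of members are printed beside the share of all genes that passed the same threshold. All 10 were found in the table, and all 10 passed the filter on low counts. Timp1 and Adamts4 reached 10 counts in every library of a group only in the 3 zymosan-treated groups, and Timp3 only in the unloaded zymosan groups of both genotypes. The filter asked for enough counts in a minimum number of libraries, and not for a difference between groups. These 3 genes therefore passed it mainly through the groups where they were high.

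Marrow came from femurs and tibias of mice 15 to 25 weeks old, and was differentiated in medium conditioned by L929 cells, a source of macrophage colony-stimulating factor. Wild-type (WT) BMDMs were left untreated (4 libraries), given zymosan for 3 h at 2 particles per cell (5 libraries), or loaded with the intracellular calcium chelator BAPTA-AM at 10 µM before the same zymosan exposure (4 libraries). BMDMs from Mcu-/- mice, in which a floxed Mcu allele was deleted by a Cre driven from Cx3cr1, were left untreated (4 libraries) or given zymosan for 3 h (3 libraries). Mcu encodes the pore of the mitochondrial calcium uniporter, and zymosan is a yeast cell wall particle that is taken up by phagocytosis. No library was loaded with BAPTA-AM and left without zymosan. The labels call the libraries biological replicates, without saying which mouse gave which library. The comparisons asked what zymosan did to macrophages of each genotype, how loss of the uniporter changed that response, and what the chelator changed in WT cells.

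Matrix metalloproteases (MMPs) are zinc enzymes that are made as inactive precursors and cut collagens, elastin, proteoglycans and many signalling proteins once the propeptide is removed. Tissue inhibitors of metalloproteases (TIMPs) are small secreted proteins that block the active site one to one, and TIMP3 also inhibits several ADAM and ADAMTS enzymes. Macrophages release several of these enzymes during inflammation and tissue remodelling, where transcription of MMP genes through AP-1 elements close to the start site is a textbook form of control.

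The libraries held 14.4 M to 23.95 M counts each. The targeted gene Mcu was at 126 to 197 normalised counts in the WT libraries and at 54.2 to 83.4 in the Mcu-/- libraries, where a normalised count is a count scaled to the mean library of 20.6 M counts after TMM scaling. Replicate 4 of the untreated Mcu-/- group stood apart from its 3 partners. The mean chi-square per gene was 209 to 217 in its 3 pairs and 1.60 to 6.20 in the 28 other pairs within groups. Where a difference between groups that include this library is reported, other than the lower bound for Adamts4, it is given with and without the library. Not every such difference is reported for every member. The library's value is printed on its own wherever that group is described. Its presence also set the spread used for every comparison, since the common biological coefficient of variation was 12.4% with it and 3.56% without it. All 8 macrophage markers examined (Adgre1, Csf1r, Cd68, Itgam, Mertk, Fcgr1, Lyz2 and Cd14) were at 10 CPM (counts scaled to a library of 1 M) or more in at least 1 group.

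Promoter sequences are shown for 4 members, because 2 of them, Mmp13 and Mmp12, carry the AP-1 letters and the other two, Mmp14 and Timp1, rose with zymosan in WT without carrying them. RefSeq start sites matched 8 of the 10 members, with 9 promoters, and Mmp9 and Adamts4 were not matched. Each line gives the 150 bases upstream of the start, 5′ to 3′ on the gene's own strand, in RefSeq GRCm38.p6, with the AP-1 letters TGANTCA in capitals. The Mmp13 window is chr9:7272364-7272513, the Mmp12 window is chr9:7347224-7347373, the Mmp14 window is chr14:54431448-54431597 and the Timp1 window is chrX:20870016-20870165, all on the plus strand. The Mmp12 window lies before the second of 2 RefSeq starts, inside an intron of the gene, the Timp1 window lies inside an intron of Syn1 on the other strand, and no annotated gene covers the Mmp13 or Mmp14 window.
Mmp13: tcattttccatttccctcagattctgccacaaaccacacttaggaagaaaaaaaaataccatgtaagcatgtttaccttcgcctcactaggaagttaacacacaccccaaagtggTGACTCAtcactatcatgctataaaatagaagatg
Mmp12: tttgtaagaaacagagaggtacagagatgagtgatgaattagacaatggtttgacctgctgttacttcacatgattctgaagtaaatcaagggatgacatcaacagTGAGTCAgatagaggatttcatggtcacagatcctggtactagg
Mmp14: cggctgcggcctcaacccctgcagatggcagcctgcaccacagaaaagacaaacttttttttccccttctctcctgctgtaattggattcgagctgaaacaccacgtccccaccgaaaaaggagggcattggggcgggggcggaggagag
Timp1: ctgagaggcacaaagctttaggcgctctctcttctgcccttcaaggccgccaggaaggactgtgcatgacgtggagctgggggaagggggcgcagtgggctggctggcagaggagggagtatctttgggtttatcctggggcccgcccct

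The AP-1 letters TGANTCA, read on both strands over 250 bases upstream, were found in 2 of the 9 member promoters and in 6.75% of 32851 promoters. The Mmp13 match TGACTCA lay at bases -35 to -29 before the start, and the Mmp12 match TGAGTCA at bases -44 to -38. The NF-kB pattern (3 G, any 5 bases, 2 C) occurred in 3 member promoters (those of Timp1, Timp3 and the first Mmp12 start) and in 45.8% of all promoters. The short NFAT core GGAAA occurred in 3 (Mmp13, Mmp14 and Timp1) and in 55.6% of all. A match describes letters and not a bound site.

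Among the inhibitors, Timp1 was the one with the largest zymosan response in WT cells. Timp1 (ENSMUSG00000001131, mm10 chromosome X, 20870166 to 20874735, plus strand) encodes a secreted inhibitor of most soluble MMPs. Its normalised counts were 3.51, 9.62, 1.76 and 6.94 in untreated WT libraries and 284, 253, 261, 328 and 255 with zymosan. BAPTA-AM libraries were at 72.6, 90.0, 111 and 78.2. Untreated Mcu-/- libraries were at 3.81, 8.06 and 3.76 in replicates 1 to 3 and at 31.1 in replicate 4, and the Mcu-/- zymosan libraries at 83.7, 83.9 and 72.8. Every zymosan library thus lay above every untreated one, and the unloaded WT zymosan libraries lay above all others. Zymosan raised Timp1 by 5.65 ± 0.43 on the log2 scale (SE from the fit over all 20 libraries, 5 compared with 4), or 50.2-fold. BAPTA-AM left it 1.65 ± 0.30 lower on the log2 scale (log2 difference -1.65) and Mcu-/- zymosan libraries were 1.79 ± 0.34 lower than WT (log2 difference -1.79). In bulk RNA, fewer cells making a transcript and less transcript per cell cannot be told apart.

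Timp2 (ENSMUSG00000017466, chromosome 11, 118301069 to 118355740, minus strand) also helps MT1-MMP, the product of Mmp14, to activate pro-MMP2. It was an abundant transcript in every group, with 2058 to 2264 normalised counts in untreated WT, 1853 to 2058 with zymosan and 1656 to 1933 with BAPTA-AM. Replicates 1 to 3 of untreated Mcu-/- ran from 2192 to 2292 and replicate 4 was at 3091, while Mcu-/- zymosan libraries ran from 2851 to 3002. The Mcu-/- zymosan libraries lay above all WT libraries, with a log2 difference from WT zymosan of 0.58 ± 0.08 (1.495-fold). Untreated and zymosan-treated WT libraries differed by -0.15 ± 0.08 on the log2 scale and overlapped.

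Timp3 (ENSMUSG00000020044, chromosome 10, 86300372 to 86349506, plus strand) encodes the inhibitor that stays bound to matrix. Its counts were low throughout. Untreated WT libraries were at 4.39, 5.25, 7.94 and 9.25 normalised counts, WT zymosan libraries at 14.1, 18.1, 23.1, 32.7 and 16.0, and BAPTA-AM libraries at 13.2, 5.62, 6.55 and 6.25. Untreated Mcu-/- libraries were at 0.762, 2.93 and 1.51 in replicates 1 to 3 and at 40.9 in replicate 4, and Mcu-/- zymosan libraries at 110.4, 48.9 and 69.7. The Mcu-/- zymosan libraries were the highest of the series and did not overlap WT zymosan (log2 difference 1.86 ± 0.61). In WT the groups did not overlap either, but the log2 difference of 1.64 ± 0.76 was not called. It was called by DESeq2, with the 2 groups fitted alone, and on leaving out replicate 1, 3 or 4 of untreated Mcu-/- (without replicate 4, 1.65 ± 0.37). In Mcu-/- cells the log2 zymosan difference was 2.76 ± 0.67 with that library and 5.35 ± 0.42 without it.

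**Figure D1:**
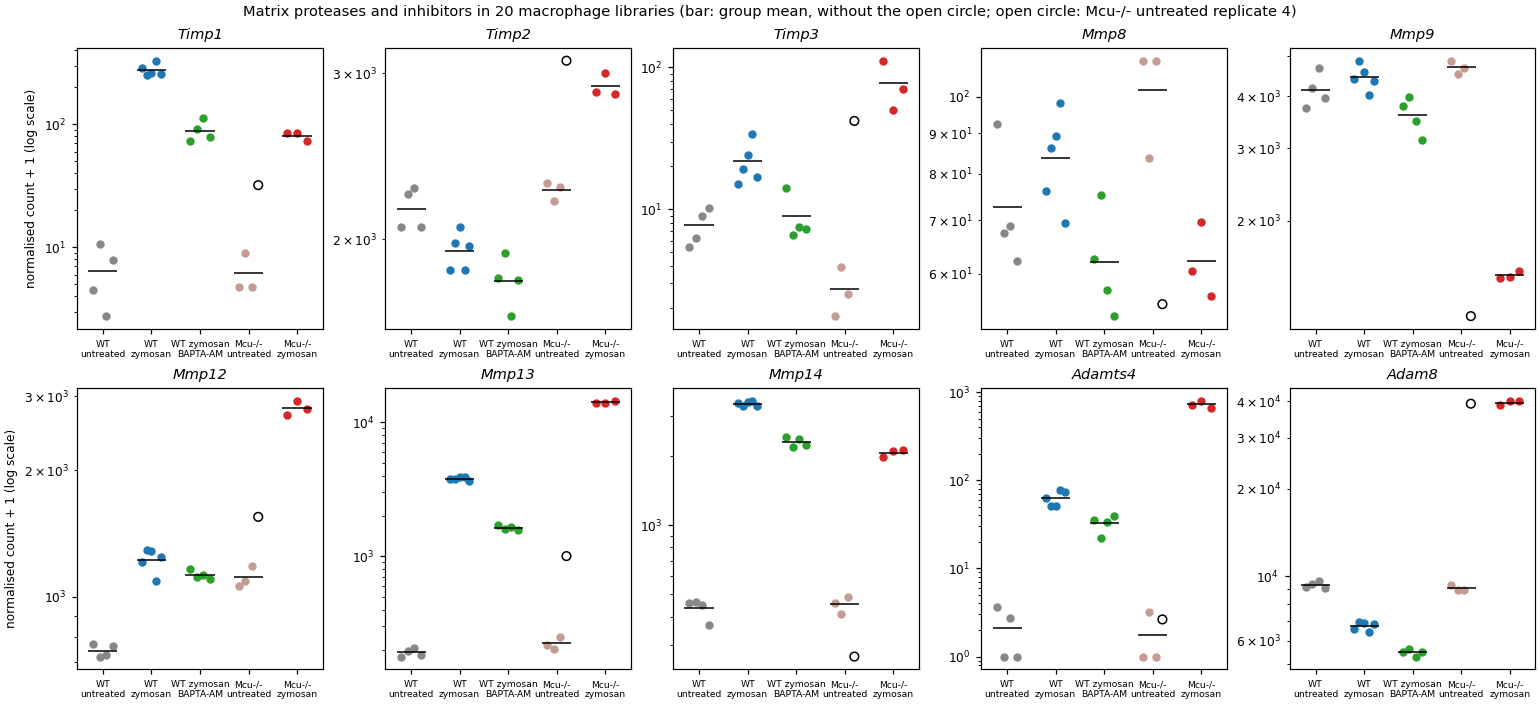
Normalised counts plus 1 (log axis, own range per gene) of the 10 genes in each of the 20 libraries, by group, with bars at group means and untreated Mcu-/- replicate 4 as an open circle left out of its bar. The Mmp13 libraries ran from 177 to 206 in untreated WT and from 13934 to 14358 in Mcu-/- with zymosan, while the open circle of Adam8, at 39296, sat among the Mcu-/- zymosan libraries.

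Mmp13 and Mmp14 were the MMP members with the largest zymosan responses in WT cells, and they differed in opposite directions between the genotypes. Mmp13 (ENSMUSG00000050578, chromosome 9, 7272514 to 7283331, plus strand) encodes collagenase-3, the main fibrillar collagenase of rodents. Its normalised counts were 177, 197, 206 and 183 in untreated WT libraries and 3789.9, 3746, 3889, 3915 and 3626 with zymosan. BAPTA-AM libraries were at 1715, 1593, 1642 and 1566. Mcu-/- libraries were at 218, 204 and 248 untreated in replicates 1 to 3, at 1001 in replicate 4, and at 13960.0, 13934 and 14358 with zymosan. No group of treated libraries overlapped another. The WT zymosan response was 4.31 ± 0.38 on the log2 scale (19.9-fold), the Mcu-/- zymosan libraries stood 1.89 ± 0.33 above WT zymosan (3.71-fold), and BAPTA-AM libraries stood at 42.9% of unloaded WT (log2 difference -1.22 ± 0.32). In Mcu-/- cells the response was 5.08 ± 0.39 with replicate 4 among the untreated libraries and 5.98 ± 0.05 without it. The difference between the genotypes' responses accordingly went from 0.77 ± 0.49, not called, to 1.67 ± 0.08, called.

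Mmp14 (ENSMUSG00000000957, chromosome 14, 54431612 to 54445364, plus strand) encodes the membrane-anchored MT1-MMP, which cuts collagen at the cell surface and activates pro-MMP2. It was at 456, 459.9, 447 and 368 normalised counts in untreated WT libraries and at 3419, 3321, 3439.9, 3477 and 3298 with zymosan. BAPTA-AM libraries were at 2421, 2196, 2372 and 2239.9. Untreated Mcu-/- libraries were at 457, 408 and 488 and, in replicate 4, at 267, and Mcu-/- zymosan libraries at 1979, 2111 and 2128. All zymosan libraries lay above all untreated ones, and the order with zymosan was WT, then BAPTA-AM, then Mcu-/-, without overlap. The log2 differences were 2.97 ± 0.12 for zymosan in WT (7.82-fold), -0.71 ± 0.12 for Mcu-/- against WT with zymosan and -0.56 ± 0.11 for BAPTA-AM. The zymosan response was smaller in Mcu-/- cells by 0.61 ± 0.17 (difference of log2 responses -0.61), and by 0.76 ± 0.08 without replicate 4 (-0.76).

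Mmp12 (ENSMUSG00000049723, chromosome 9, 7344381 to 7369499, plus strand), the macrophage elastase, was the only member called between the untreated genotypes. It was at 769, 719, 724 and 759.6 normalised counts in untreated WT libraries, and at 1062, 1089 and 1182 in replicates 1 to 3 of untreated Mcu-/- and 1548 in replicate 4. The genotypes did not overlap, and the log2 difference was 0.72 ± 0.09 with replicate 4 and 0.58 ± 0.05 without it. The call between the untreated genotypes was lost with only these 2 groups fitted. With zymosan, WT libraries were at 1207, 1287, 1287, 1087 and 1242 and Mcu-/- libraries at 2705, 2923 and 2800.0. The log2 zymosan response was 0.72 ± 0.08 in WT and 1.20 ± 0.09 in Mcu-/- (1.34 ± 0.05 without replicate 4). With zymosan the genotypes differed by 1.20 ± 0.09 on the log2 scale, without overlap. BAPTA-AM libraries, at 1099.6 to 1159.9, overlapped the unloaded ones (log2 difference -0.12 ± 0.08).

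Mmp9 and Mmp8, enzymes also known from neutrophil granules, did not pass the threshold with zymosan in WT cells. Mmp9 (ENSMUSG00000017737, chromosome 2, 164940780 to 164955850, plus strand) encodes gelatinase B. It was at 3759 to 4679 normalised counts in untreated WT libraries, 4042 to 4882 with zymosan and 3130.0 to 3986 with BAPTA-AM. Untreated Mcu-/- libraries were at 4878, 4541 and 4682 in replicates 1 to 3 and 1176 in replicate 4, and Mcu-/- zymosan libraries at 1456, 1467 and 1513. The Mcu-/- zymosan libraries and that replicate were below every other library of the series. Mcu-/- against WT with zymosan gave a log2 difference of -1.59 ± 0.29, or 33.2% of the WT mean. Zymosan against untreated in Mcu-/- gave -1.37 ± 0.30 with replicate 4, whose value lay below all 3 zymosan libraries, and -1.67 ± 0.07 without it. BAPTA-AM libraries lay just below the unloaded ones without overlap (-0.31 ± 0.25, not called, and called without replicate 4, at -0.31 ± 0.05, and with the 2 groups fitted alone).

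Mmp8 (ENSMUSG00000005800, chromosome 9, 7558456 to 7568485, plus strand), collagenase-2, was a low transcript with small differences. It ran from 61.3 to 91.4 normalised counts in untreated WT, 68.6 to 97.1 with zymosan, 52.1 to 74.2 with BAPTA-AM and 55.4 to 68.7 in Mcu-/- with zymosan. Untreated Mcu-/- replicates 1 to 3 ran from 82.8 to 109.9 and replicate 4 was at 54.0. Of the comparisons between 2 groups, the zymosan comparison in Mcu-/- was the 1 called, at -0.55 ± 0.21 on the log2 scale, where the groups overlapped through replicate 4. Without it the difference was -0.72 ± 0.17, with no overlap. The difference between the genotypes' responses was -0.75 ± 0.28. It was called narrowly, and lost the call with DESeq2 size factors, with the loosest filter, with the groups compared fitted alone and on leaving out most single libraries. Without replicate 4, the differences of Mcu-/- (-0.44 ± 0.17) and BAPTA-AM (-0.44 ± 0.15) from WT zymosan were called too.

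Adamts4 (ENSMUSG00000006403, chromosome 1, 171250421 to 171260637, plus strand), an aggrecanase that cuts the proteoglycans aggrecan and versican, was at or under 3 counts in every untreated library of either genotype. Its normalised counts with zymosan were 62.2, 50.1, 49.4, 76.8 and 72.0 in WT libraries, 34.1, 21.4, 32.7 and 38.6 with BAPTA-AM, and 709.95, 787 and 665 in Mcu-/- libraries. The 3 treated groups did not overlap. Against a floor of 3 counts in each untreated library, zymosan raised it at least 21.8-fold in WT and at least 314-fold in Mcu-/-. Libraries with BAPTA-AM and zymosan stood at least 11.1-fold above the floor of untreated, unloaded WT. Among the treated groups, Mcu-/- stood 11.6-fold above WT (log2 difference 3.54 ± 0.20), the largest genotype difference of the 10 members with zymosan, and BAPTA-AM stood at 51.0% of unloaded WT (-0.96 ± 0.24).

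Adam8 (ENSMUSG00000025473, chromosome 7, 139978932 to 139992562, minus strand), a transmembrane protease of leukocytes that sheds surface proteins, had the highest mean level per length of the 10 members in every group. Untreated WT libraries were at 9206, 9374, 9635 and 9094 normalised counts, WT zymosan libraries at 6590.1, 6956, 6902, 6417 and 6818, and BAPTA-AM libraries at 5473, 5608, 5285 and 5469. Untreated Mcu-/- libraries were at 9316, 8973 and 8945 in replicates 1 to 3 and at 39296 in replicate 4. Mcu-/- zymosan libraries were at 38750.0, 40116 and 40110.4, so that replicate 4, though labelled untreated, lay within their range. WT groups fell in the order untreated, zymosan, BAPTA-AM without overlap, at log2 differences of -0.47 ± 0.31 for zymosan and -0.30 ± 0.32 for BAPTA-AM that were not called with replicate 4 in the fit and were called without it (-0.47 ± 0.03 and -0.30 ± 0.03). Mcu-/- zymosan libraries were 5.89-fold above WT zymosan (2.56 ± 0.34).

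**Figure D2:**
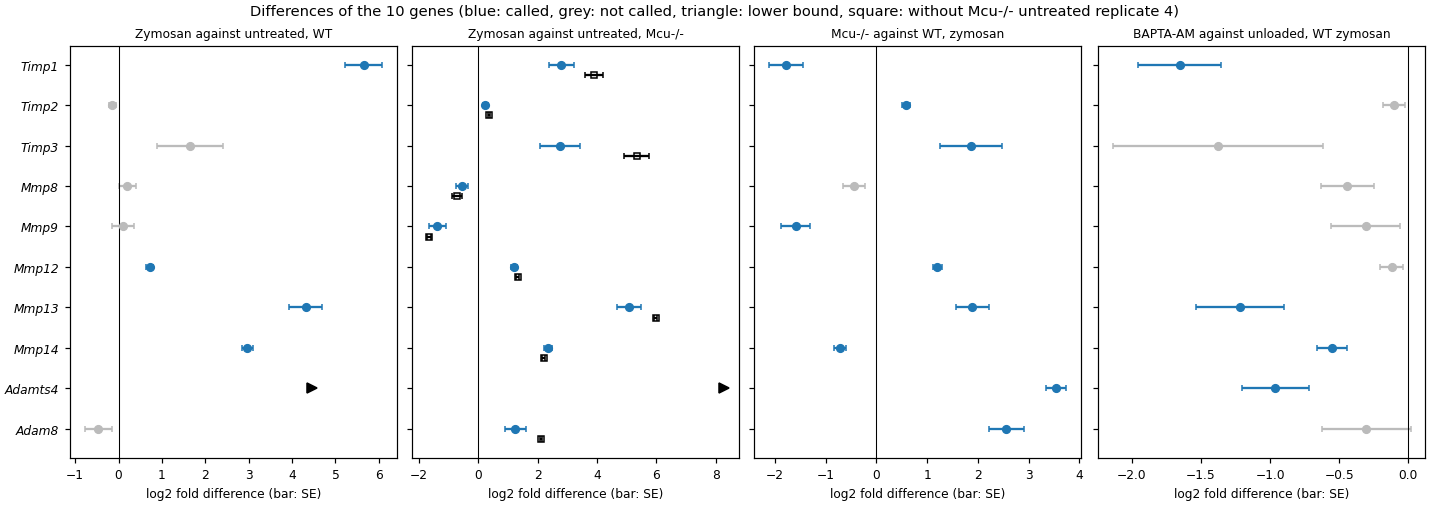
Log2 fold differences with SE of the 10 genes in 4 comparisons, each panel with its own axis. Blue points were called, grey points were not, triangles are the lower bounds of Adamts4, and squares leave out untreated Mcu-/- replicate 4. The 10 BAPTA-AM differences were all below 0 and ran from -1.65 (Timp1) to -0.11 (Timp2), while Mcu-/- against WT with zymosan ran from -1.79 (Timp1) to 3.54 (Adamts4).

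Counted over the set, zymosan in WT called 5 members higher and 0 lower where 69.1% of the 11707 genes tested were called. Without untreated Mcu-/- replicate 4 in the fit, 6 were called higher and 2 lower (Timp2 and Adam8) where 78.5% of genes were called. A call is an adjusted p under 0.05 in edgeR's quasi-likelihood fit over all genes. Against WT with zymosan, Mcu-/- had 6 members called higher and 3 lower where 62.2% of genes were called (6 and 4 where 70.1% were, without replicate 4). In Mcu-/- cells zymosan called 8 higher and 2 lower where 73.8% of genes were called (81.5% without replicate 4, with the same 8 and 2). Between the untreated genotypes 1 member was called where 0.350% of genes were called (3.35% without replicate 4). The genotypes' responses differed in 8 members where 35.2% of genes were called, and in 10 without replicate 4, where 60.3% were; for Adamts4 that difference rests on 2 untreated groups at the floor and has no size to read. Since the genes were chosen with these contrasts known, nothing is read from these counts.

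With BAPTA-AM the counts were 0 higher and 4 lower (Timp1, Mmp13, Mmp14 and Adamts4) where 12.8% of all genes were called. Without replicate 4 of untreated Mcu-/-, a library outside this comparison, all 10 were called lower where 31.8% of genes were called. The median log2 difference of the members was -0.50, beside a median of 0.000490 over all genes tested. Loaded libraries were not back at the untreated level, with 5 members called higher and 1 lower than in untreated WT where 66.0% of genes were called (5 and 3 where 75.9% were, without replicate 4). Mmp13 was still 8.53-fold and Timp1 15.9-fold above untreated WT. As no library had BAPTA-AM without zymosan, these values are not a zymosan response of loaded cells. The comparisons share the unloaded or the untreated WT libraries and are not independent of each other.

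The members' shift in untreated Mcu-/- replicate 4 ran the same way as the Mcu-/- minus WT difference with zymosan for 8 of the 9 members above the floor in untreated cells, with Timp1 as the exception. The mean shift of replicates 1 to 3 ran that way for 3 of the 9. The share of all genes that did so was not computed, so neither count is read as particular to the members. For Adam8 the log2 shift from the untreated WT mean was 2.08 in replicate 4 and -0.04 in replicates 1 to 3, beside a zymosan genotype difference of 2.56. For Mmp9 the shifts were -1.81 and 0.18, beside -1.59. For Mmp14 they were -0.69 and 0.06, beside -0.71. Whether the genotype differences with zymosan share their origin with the shift of that untreated library was not tested.

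Levels can be compared between genes only per length, here as CPM per kb of annotated exon. In untreated WT libraries Adam8 was at 97.5 ± 2.46 CPM per kb (SD, n = 4), Mmp9 at 56.9 ± 5.41, Timp2 at 26.8 ± 1.37 and Mmp12 at 4.98 ± 0.17. Mmp14 (3.52 ± 0.36) and Mmp13 (3.46 ± 0.23) did not separate, and Mmp8, Timp1, Timp3 and Adamts4 followed. With zymosan, WT libraries held Adam8 at 70.4 ± 2.37, Mmp13 at 68.8 ± 2.11 and Mmp9 at 61.1 ± 4.24 (n = 5), and both neighbouring pairs of this order overlapped. In Mcu-/- with zymosan, Adam8 was at 415 ± 8.23 and Mmp13 at 256 ± 4.31 (n = 3), ahead of Timp2 at 36.2 ± 1.05 and Mmp9 at 20.3 ± 0.42, with no overlap between neighbours.

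**Figure D3:**
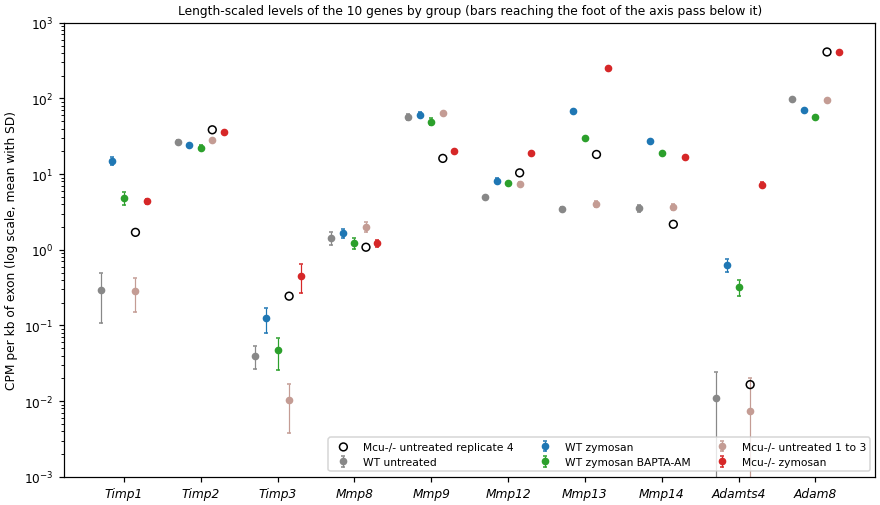
Mean CPM per kb of exon with SD (log axis) of the 10 genes in each group, with untreated Mcu-/- replicate 4 as an open circle. In Mcu-/- with zymosan Mmp13 reached 256 CPM per kb beside 4.38 for Timp1, and in WT with zymosan 68.8 beside 15.1. The other inhibitors went the other way. Timp2 was at 36.2 in Mcu-/- and 24.2 in WT with zymosan, and Timp3 at 0.455 and 0.124.

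Genes whose pattern was most like each member were named by the highest Pearson correlation of log2 CPM over the 20 libraries, as a description, since libraries of a group are not independent of each other in it. Mmp13 was nearest to Chmp1b (r = 0.996) and Mmp14 to Tmem2 (r = 0.997). Adam8 was nearest to Trem2 (r = 0.996) and Mmp9 to F13a1 (r = 0.987). The nearest genes were Il18 for Timp1 (r = 0.973), Nrp1 for Timp2 (r = 0.973), Ccdc6 for Timp3 (r = 0.931), Ifi27l2a for Mmp12 (r = 0.959), Cggbp1 for Adamts4 (r = 0.976) and Mrc1 for Mmp8 (r = 0.746). Among members, Adam8 went with Timp2 (r = 0.960) and against Mmp9 (r = -0.890), and Mmp13 went with Adamts4 (r = 0.954).

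Mmp13, Mmp12 and Mmp8 lie in the MMP gene cluster of chromosome 9. Of its other genes in the table, Mmp10 (stromelysin-2) and Mmp27 were tested, Mmp3 and Mmp1b had at most 2 counts in any library, Mmp7 at most 1 and Mmp20 had 0 in all 20. Mmp10, named after its values were seen, was at 3.54 ± 1.88 normalised counts in WT with zymosan (SD, n = 5) and 58.8 ± 20.03 in Mcu-/- with zymosan (n = 3), with 1.49 in the mean of untreated Mcu-/- replicates 1 to 3 and 18.8 in replicate 4. It passed the filter on low counts through the Mcu-/- zymosan group, where it was high. Mmp27 rose with zymosan in WT from 63.8 ± 5.81 to 99.4 ± 11.6 (log2 difference 0.64, edgeR adjusted p = 4.78e-05) and differed by 0.16 between the genotypes with zymosan (adjusted p = 0.233).

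**Figure D4:**
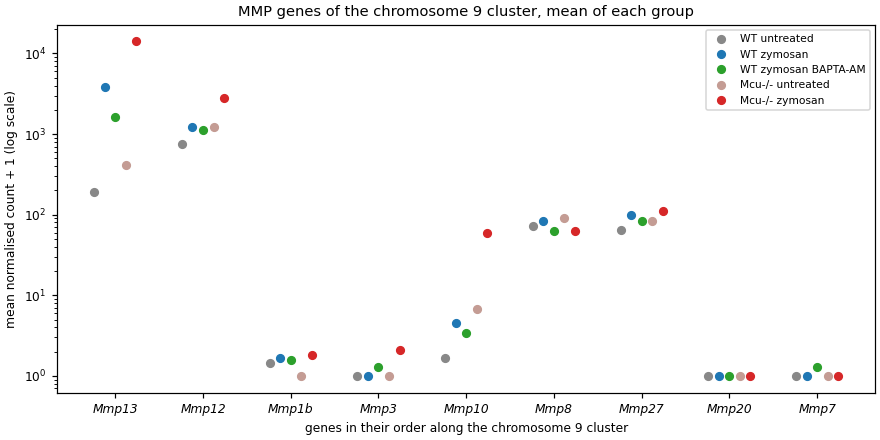
Mean normalised count plus 1 (log axis) of 9 MMP genes in their order along the chromosome 9 cluster, 1 point per group, with untreated Mcu-/- replicate 4 included in its mean. Mmp13 spanned 191 to 14084 over the groups and Mmp8 61.1 to 89.1.

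In the wider MMP family, 6 genes outside the set were tested, of which 3 rose and 2 fell with zymosan in WT, 3 were higher in Mcu-/- with zymosan and 1 was lower with BAPTA-AM (2 without untreated Mcu-/- replicate 4). The 3 higher in Mcu-/- include Mmp10, which passed the filter through the group where it was high. Of all genes tested, 69.1% were called with zymosan in WT and 62.2% between the genotypes with zymosan. With BAPTA-AM the share was 12.8% (31.8% without replicate 4). Mmp19 fell from 472 ± 23.7 to 166 ± 25.996 normalised counts with zymosan (log2 difference -1.50, edgeR adjusted p = 8.44e-11). Of 10 other ADAM genes, 2 rose and 4 fell with zymosan, and 2 were higher and 5 lower in Mcu-/- with zymosan. Adam17, the sheddase which releases TNF, rose by 1.06 on the log2 scale to 9265 ± 128 normalised counts (adjusted p = 1.46e-14), and Adam10 fell by 0.64 (adjusted p = 6.72e-08). The ADAMTS list had 6 other genes tested, of which Adamtsl4 and Adamtsl5 encode ADAMTS-like proteins without protease activity. With zymosan in WT 4 of the 6 rose, Adamtsl5 among them, and 1 fell. The 1 higher (Adamtsl5) and the 1 lower (Adamtsl4) in Mcu-/- with zymosan were both ADAMTS-like. Adamts10 was the one that fell, by 2.26 (adjusted p = 2.59e-06). Reck, a membrane-anchored MMP inhibitor and the 1 other inhibitor tested, fell with zymosan.

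Plasminogen activation, which yields plasmin, an activator of pro-MMPs, had 7 genes tested. With zymosan in WT 5 rose and 1 fell, where 69.1% of all genes were called, and in Mcu-/- against WT with zymosan 5 were higher and 2 lower, where 62.2% of all genes were. Plau, the urokinase gene, was at 597 ± 59.7 normalised counts in WT with zymosan and 4182 ± 111 in Mcu-/- (log2 difference 2.81, edgeR adjusted p = 4.25e-07). Its receptor gene Plaur rose by 2.04 in WT (adjusted p = 4.83e-07) and was 1.65 higher in Mcu-/- (adjusted p = 1.52e-05). Untreated Mcu-/- replicate 4 held Plau at 5844 normalised counts, beside a mean of 1759 in replicates 1 to 3. Plaur was at 1142 in replicate 4, beside 392. Serpine2, 1 of the 5 higher, was low in WT with zymosan, at 4.42 normalised counts, and at 66.5 in Mcu-/-. In untreated Mcu-/- it was at 45.0 in replicate 4, beside 1.51. Serpinb2, which encodes the plasminogen activator inhibitor PAI-2, rose by 7.41 in WT (edgeR adjusted p = 9.93e-15) and was lower with BAPTA-AM, at a log2 difference of -1.18 (adjusted p = 5.45e-05).

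Among 9 tested activators and partners of these proteases, 5 rose and 2 fell with zymosan in WT, where 69.1% of all genes were called. Cd44, a hyaluronan receptor that docks MMP9 and MT1-MMP, rose by 2.91 to 31092 ± 1339 normalised counts (edgeR adjusted p = 1.57e-19), and Furin, which removes the MT1-MMP propeptide, rose by 1.42 (adjusted p = 6.33e-11). Rhbdf2, needed for maturation of ADAM17, rose by 2.33 (adjusted p = 4.30e-15). In Mcu-/- with zymosan 2 of the 9 were higher and 4 lower than in WT, where 62.2% of all genes were called.

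Cathepsins are proteases of the lysosome that can also act outside the cell. Against WT with zymosan, Mcu-/- libraries had 9 of the 13 tested higher and 1 lower, where 62.2% of all genes were called. With zymosan in WT 4 rose and 0 fell, where 69.1% of all genes were called. Without untreated Mcu-/- replicate 4 these were 9 and 1, where 78.5% of all genes were called. Ctsl was 2.13 higher (edgeR adjusted p = 2.25e-05), Ctsd 1.46 higher (adjusted p = 2.22e-05) and Ctsb 1.22 higher (adjusted p = 0.000380) on the log2 scale in Mcu-/- than in WT with zymosan. Untreated Mcu-/- replicate 4 held Ctsl at 34400, Ctsd at 126758 and Ctsb at 206963 normalised counts. The means of replicates 1 to 3 were 8540, 48404 and 69884. Of 4 cathepsin inhibitors, 4 rose with zymosan in WT, among them Cstb at 0.70 (adjusted p = 1.99e-07), and 1 was higher and 1 lower in Mcu-/-. With BAPTA-AM 1 cathepsin was called, lower, where 12.8% of all genes were called (6 where 31.8% were, without replicate 4).

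Of 18 tested genes for matrix substrates of these enzymes, Mcu-/- libraries had 16 higher and 0 lower against WT with zymosan. The share called in that comparison was 62.2% of all genes. Several of these genes were low in WT. Mean normalised counts in WT and Mcu-/- with zymosan were 6.77 and 18.7 for Nid1, and 11.6 and 58.6 for Col6a1. A gene that passed the filter on low counts through the Mcu-/- zymosan group tends to be called higher there. How many did so was not counted. Col1a1 was at 41.8 ± 5.94 normalised counts in WT with zymosan and 448 ± 75.7 in Mcu-/- (log2 difference 3.41, edgeR adjusted p = 0.000421), Col1a2 differed by 3.40 (adjusted p = 0.000314) and Sparc by 3.29 (adjusted p = 0.000280). The shift was again present in the untreated Mcu-/- replicate 4, where Col1a1 was at 268 normalised counts beside a mean of 10.5 in replicates 1 to 3. With zymosan in WT, 4 substrate genes rose and 2 fell where 69.1% of all genes were called (9 and 4 where 78.5% were, without replicate 4). The lists were not tested as sets.

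Levels of other cell types' markers moved along with several of these results. The summed level of 8 fibroblast or stromal cell markers was 8.26 to 11.2 CPM in WT with zymosan, 52.2 to 62.8 in Mcu-/- with zymosan, 2.04 to 3.70 in untreated Mcu-/- replicates 1 to 3 and 32.5 in replicate 4. From WT to Mcu-/- with zymosan, mean CPM went from 2.03 to 21.7 for Col1a1, 2.19 to 23.2 for Col1a2, 2.81 to 7.97 for Postn, 0.905 to 3.73 for Col3a1 and 1.03 to 1.65 for Pdgfrb. The other three stayed low in both, from 0.138 to 0.286 for Dcn, 0.0736 to 0 for Lum and 0.143 to 0.111 for Pdgfra. The macrophage marker sum was 16076 to 16389 CPM in WT with zymosan, 10406 to 10764 in Mcu-/- with zymosan and 8554 in replicate 4. Single macrophage markers did not move together from WT to Mcu-/- with zymosan, and most of the 8 went against the sum. Mean CPM rose from 309 to 1158 for Cd68, 562 to 1080 for Csf1r and 212 to 573 for Fcgr1. It also rose from 60.6 to 76.0 for Mertk and 1095 to 1389 for Cd14. The markers that fell were Lyz2 (8181 to 3241), Adgre1 (4919 to 2839) and Itgam (869 to 275). The part of either shift in Timp3, Mmp13, Adamts4, Plau or the collagens was not tested. The summed level of 10 neutrophil markers was at most 5.76 CPM in any library, with 0.547 to 0.765 in Mcu-/- with zymosan and 0.159 in replicate 4, the libraries with the least Mmp9. Ly6g was at or below 0.0247 CPM in every group mean, and the part of neutrophil RNA in Mmp9 was not tested.

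**Figure D5:**
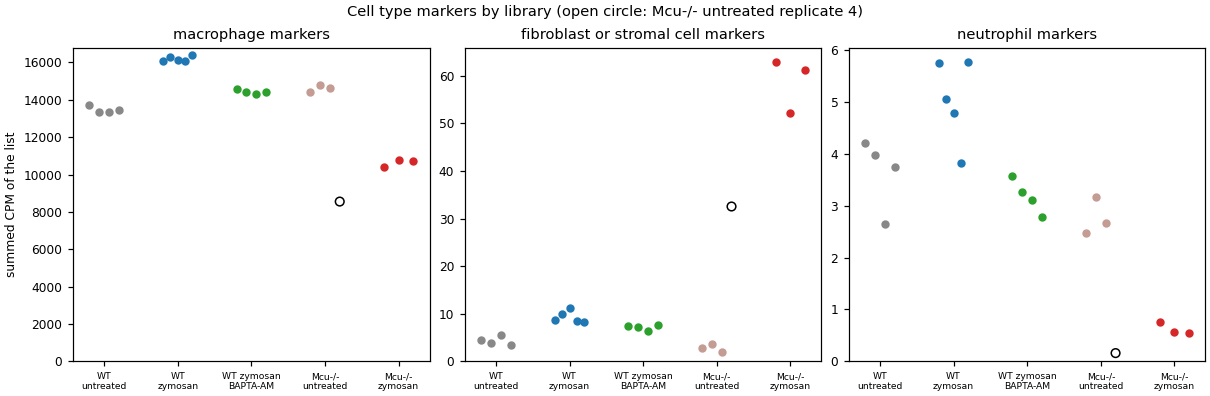
Summed CPM (linear axis from 0) of macrophage, fibroblast or stromal, and neutrophil markers in each of the 20 libraries, with untreated Mcu-/- replicate 4 as an open circle. Mcu-/- zymosan libraries and replicate 4 lay apart from the other libraries in all 3 panels, with stromal sums of 32.5 to 62.8 beside at most 11.2 elsewhere.

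Several members share ground with another gene, and the counting is not stated to use strand, so reads of overlapping stretches cannot be told apart. Timp3 shares 1733 exon bases with Syn3 on the other strand, whose counts were at most 5 in any library. Mmp12 shares 157 with Mmp1b, at most 2 counts, and Timp1 lies inside Syn1 without a shared exon base.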

How the data were processed

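The authors trimmed reads with cutadapt after FastQC and MultiQC, aligned them to mm10 with STAR, counted genes with HTSeq and used DESeq2; versions, annotation and strand setting are not given in the sources used here. They deposited raw counts per gene for 20 libraries in 1 table, with 14.4 M to 23.95 M counts each. The Mcu-/- zymosan columns are numbered 3 to 5, the labels 1 to 3. The members and all gene lists were chosen with earlier results of these data known. Genes passing filterByExpr (11707) were fitted over all 20 libraries with edgeR 4.0.16 (R 4.3.3) by quasi-likelihood with TMM scaling and no covariate. The SE of a log2 difference was its absolute value divided by the square root of F, the quasi-likelihood test statistic. It thus rests on the spread over all libraries in the fit. Benjamini-Hochberg adjusted p under 0.05 over all genes tested was a call. DESeq2 1.42.0 served as an alternative. The planned exact permutation tests of single members are not reported, since the members were chosen with these contrasts known (smallest p allowed 0.00794 for 4 against 5 libraries and 0.0179 for 3 against 5). Positions and exon lengths are from GENCODE M21, promoters from RefSeq. Outside the members, the genes named from a list were those called whose higher group averaged 10 CPM or more and whose libraries did not overlap, at most the 3 with the largest log2 difference per list and comparison, with genes that overlap a member and the 3 most correlated genes per member. Exceptions are Mmp10, Mmp27, Reck, Adamtsl4, Adamtsl5, Serpine2, Nid1 and Col6a1, named after their values were seen. The fit was tested on simulated data.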

Additional observations from a re-analysis of the deposited data

Results flagged for a closer look

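In 40 sets of 4 or 5 libraries (10 genes in 4 groups), 8 had 1 library farther from the rest than Dixon's 95% limit allows, where chance gives about 1 in 20. Of these, 6 lay on untreated Mcu-/- replicate 4, at 31.1 normalised counts for Timp1, 3091 for Timp2, 40.9 for Timp3, 1176 for Mmp9, 1001 for Mmp13 and 39296 for Adam8. It was the lowest library of its group for Mmp9 and the highest for the other 5. The remaining ones were Timp3 in BAPTA-AM replicate 1, the highest of its group at 13.2, and Mmp14 in untreated WT replicate 4, the lowest of its group at 368.

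The zymosan response differed between the genotypes (Mcu-/- minus WT, log2) by -2.85 for Timp1, 0.39 for Timp2, -0.75 for Mmp8, -1.47 for Mmp9, 0.49 for Mmp12, -0.61 for Mmp14 and 1.72 for Adam8. Without untreated Mcu-/- replicate 4 these were -1.75, 0.52, -0.92, -1.77, 0.62, -0.76 and 2.60, all called, and Timp3 (3.69) and Mmp13 (1.67) were called as well. The cause of these differences was not tested.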

How the results depend on the processing

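Of 1765 single values under the alternatives, 1685 kept direction and side of the threshold, 38 lost and 32 gained a call, and 10 changed sign. The cause was not tested. When each library had to hold 10 counts or more, 7 members were tested, as Timp1, Timp3 and Adamts4 fell out of the fit. The 5 members called with zymosan in WT became 3 with that filter, Timp1 and Adamts4 being untested. They became 9 with only the 2 groups fitted, and 5 to 8 on leaving out 1 library. The 4 called with BAPTA-AM became 2 with that filter, Timp1 and Adamts4 again being untested. They became 8 with only the 2 groups fitted, and 3 to 10 on leaving out 1 library. The 1 called between untreated genotypes became 0, and the 10 called with zymosan in Mcu-/- became 6, with only the 2 groups fitted. Leaving out 1 library gave 8 to 10 members for Mcu-/- against WT with zymosan, 8 to 10 for zymosan in Mcu-/-, 6 to 10 for the difference of responses, 6 to 8 for loaded against untreated WT and 1 throughout between untreated genotypes.

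Between the untreated genotypes the sign changed without Mcu-/- replicate 4, so that the log2 difference on leaving out 1 library ran from -0.036 to 1.54 for Timp1, -1.84 to 1.14 for Timp3, -0.26 to 0.18 for Mmp9, -0.20 to 0.049 for Mmp14 and -0.039 to 1.04 for Adam8. For Adamts4, at the floor in both groups, it ran from -1.0 to 0.51 and changed sign on leaving out any of 4 single libraries. Timp3 in loaded against untreated WT ran from -0.097 (without BAPTA-AM replicate 1) to 0.43.

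Same-numbered libraries did not deviate together (correlations -0.060 to 0.068 over 24 pairs), so the numbers are not taken to pair the samples. With the replicate number as a block, 5 members were called with zymosan in WT, 2 with BAPTA-AM, 1 between untreated genotypes and 6 for loaded against untreated WT. Comparisons with the Mcu-/- zymosan group had no blocked fit, as its column numbers do not match the labels.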
